A study of Homo sapiens with 12 samples.

Results

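A set of 10 genes that the WNT pathway switches on, most of whose products act back on the pathway, was followed across 2 cancer cell lines: AXIN2, NKD1, LGR5, RNF43, ZNRF3, NOTUM, SP5, TNFRSF19, APCDD1 and ASCL2. They were chosen by name, as the rows of the value table that carry these gene symbols, and all 10 were present among 34687 rows. HCT116 is a human colon cancer line and PANC1 a human pancreatic cancer line, and each was treated with DMSO at 0.05% (the solvent control), with 10 uM ICG-001 or with 10 uM C646 for 12 or 96 h. ICG-001 is a small molecule that binds the co-activator CBP, and C646 competes with acetyl-CoA in CBP and the related p300. RNA was read on Illumina BeadChips as signal intensity, which is the brightness of labelled RNA bound to a probe.

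The design thus had 12 groups with 1 column of values each. By the labels a column averages 2 arrays, and the PANC1 column for 12 h of ICG-001 averages 3. The methods of the study call the replicates biological and independent. The values of single arrays were not used here, so the differences below have no error and no test, and the number of arrays limits their precision. Per the methods of the study, the cultures for 12 h and for 96 h were started at different densities, and those for 96 h received fresh medium and drug repeatedly, so time and culture history cannot be told apart. At each time point, the comparisons of ICG-001 and of C646 with DMSO share the DMSO column. Comparisons between the drugs and across time reuse the same drug columns, so a single unusual column enters several of them.

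In the WNT pathway, secreted WNT proteins bind Frizzled receptors and LRP co-receptors, which halts a complex that otherwise marks β-catenin (CTNNB1) for destruction. β-catenin then enters the nucleus, binds DNA through TCF proteins such as TCF7L2, and recruits co-activators such as CBP and p300. Several of the genes it turns on are brakes on the same pathway, so that their RNA is widely used as a readout of pathway activity. In the intestine the pathway maintains the stem cells of the crypt, and in most colon cancers a mutation leaves it switched on.

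TCF proteins bind a short core in DNA, and the promoters of 2 of the 10 genes are shown to let the core be seen in a window that holds it and in a window that does not. The sequences are from RefSeq (assembly GRCh38.p14) and cover the 250 bases before the annotated start of a transcript, 5′ to 3′ on the strand of the gene. Capitals mark the 7-base cores CTTTGAA and CTTTGAT, searched on both strands, so that TTCAAAG and ATCAAAG also count. SP5 lies on the plus strand at chr2:170715087-170715336 and RNF43 on the minus strand at chr17:58417535-58417784.
SP5: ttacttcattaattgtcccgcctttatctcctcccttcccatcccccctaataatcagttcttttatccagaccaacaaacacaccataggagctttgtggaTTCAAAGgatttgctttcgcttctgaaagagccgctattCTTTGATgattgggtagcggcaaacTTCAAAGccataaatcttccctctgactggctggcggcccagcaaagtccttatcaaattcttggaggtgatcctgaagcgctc
RNF43: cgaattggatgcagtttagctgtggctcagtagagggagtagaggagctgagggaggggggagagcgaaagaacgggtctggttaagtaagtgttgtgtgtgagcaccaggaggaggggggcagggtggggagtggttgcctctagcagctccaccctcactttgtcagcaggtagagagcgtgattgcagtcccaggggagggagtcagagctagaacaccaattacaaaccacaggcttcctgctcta

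The SP5 window held 3 matches, 148, 109 and 84 bases before the start. The other 5 windows of these genes in the table (2 of TNFRSF19, 2 of RNF43 and 1 of APCDD1) held none. Among 35116 promoter windows of the same length, 5.94% held at least 1 match and 7 windows held at least 3. A match is a stretch of letters and not a measured binding site.

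In HCT116, 7 of the 10 genes were detected in at least 1 column, and in PANC1 5 were. A gene was called detected in a column when its signal was above a limit set from the background of that column, at 143 to 144 in HCT116 and at 135 to 138 in PANC1. Of all genes, 55.5% were detected in some HCT116 column and 56.4% in some PANC1 column. AXIN2, RNF43 and ZNRF3 were above it in all 6 HCT116 columns, as were 37.3% of all genes. ZNRF3 was the only one of the 10 above it in all 6 PANC1 columns, as were 38.9% of all genes. LGR5 and SP5 were at or under the limit in every column of both lines. Some genes passed it narrowly: at their highest, APCDD1 in PANC1 was at 1.001 times its limit and ASCL2 in HCT116 at 1.05 times. For genes that no column of a line detected, the SD of log2 ratios between columns was 0.07 in HCT116 and 0.06 to 0.07 in PANC1, which describes background signals only.

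The lines were checked against markers of their tissue. Of the colon epithelial markers, EPCAM, CDH1 and CDX2 were above the limit in every HCT116 column, while CDX1, VIL1, CDH17 and LGALS4 were at or under it in every one. Of the pancreatic duct markers, KRT19, KRT7, SOX9 and PDX1 were above the limit in every PANC1 column, while ONECUT1 was not above it in any. The blood cell markers PTPRC and CD3E were not above the limit in either line.

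AXIN2 encodes a scaffold of the complex that marks β-catenin for destruction. In the deposited signals it was the one gene of the set that changed at least 1.5-fold with a drug. Its signal in HCT116 was 766 with DMSO, 827 with C646 and 249 with ICG-001 at 12 h, and 643 with DMSO, 514 with C646 and 617 with ICG-001 at 96 h. The ICG-001 column at 12 h stood alone as the lowest of the 6, and the other 5 columns lay within 514 to 827. After 12 h of ICG-001 AXIN2 was thus 3.08-fold lower than with DMSO, and this was the fifth lowest ratio among 17101 genes. The 4 genes with lower ratios, named after their values were seen, were TMSB15A, TUBB4, MARCKSL1 and CSRP2. In RNA from whole cultures, fewer cells that express a gene and less of its RNA per cell cannot be told apart.

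**Figure D1:**
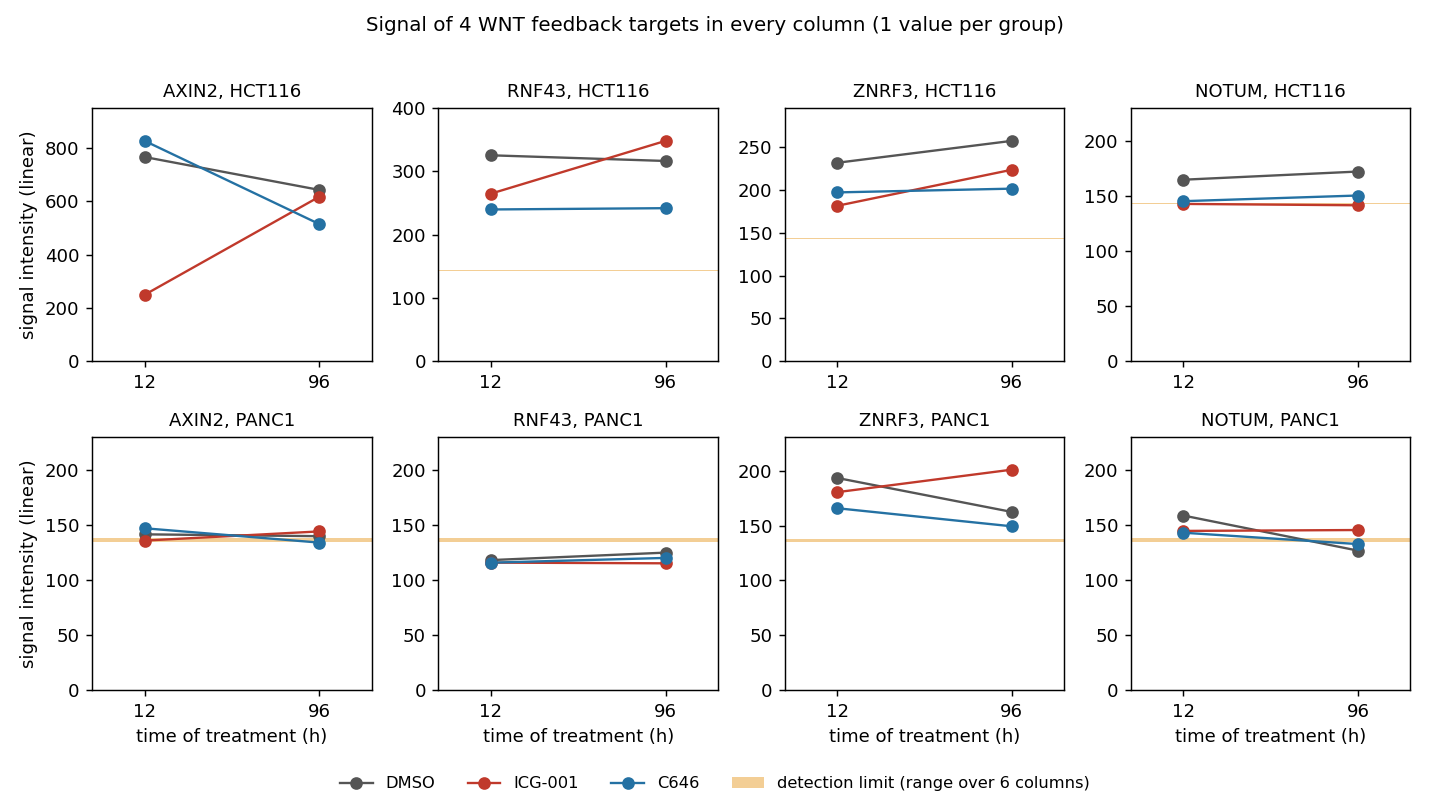
Signal intensity on a linear scale (vertical axes) of AXIN2, RNF43, ZNRF3 and NOTUM after 12 and 96 h (horizontal axes) in HCT116 (top) and PANC1 (bottom). Each point is the 1 value of a group, lines join the time points of a treatment, and the orange band is the range of the detection limit over the 6 columns; AXIN2 in HCT116 was 249 after 12 h of ICG-001 and at least 514 in the other columns.

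At 96 h the ICG-001 column of AXIN2 was back beside its DMSO column, with a log2 ratio of -0.06, and 40.6% of genes had lower ratios. Between the ICG-001 columns AXIN2 rose 2.48-fold from 12 h to 96 h, which was the thirty-ninth highest ratio among 17131 genes, while between the DMSO columns its log2 ratio of 96 h over 12 h was -0.25. This course was described against the other genes that were lower at 12 h. Of the 708 genes at least 1.5-fold lower after 12 h of ICG-001 in HCT116, 380 (53.7%) were no longer 1.5-fold lower at 96 h, and 36 (5.08%) lay as near 0 as AXIN2 did. Of the 5 genes at least 3-fold lower at 12 h, AXIN2 was the only one not at least 1.5-fold lower at 96 h. These counts were added after the values were seen.

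With C646 the order in time was the other way round in HCT116. The log2 ratio of AXIN2 over DMSO was 0.11 at 12 h and -0.32 at 96 h, neither of which reached 1.5-fold. Between the C646 columns AXIN2 fell 1.61-fold from 12 h to 96 h.

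RNF43 and ZNRF3 encode related ubiquitin ligases of the cell membrane that remove Frizzled receptors from the surface. The signal of RNF43 in HCT116 was 325 with DMSO, 239.7 with C646 and 265 with ICG-001 at 12 h, and 316 with DMSO, 242 with C646 and 348 with ICG-001 at 96 h. Both C646 columns were the lowest of the 6, and ICG-001 at 96 h was the highest. The log2 ratios of C646 over DMSO were -0.44 at 12 h and -0.39 at 96 h, and 3.58% and 4.26% of genes had lower ratios. With ICG-001 they were -0.30 at 12 h and 0.14 at 96 h. None of these differences reached 1.5-fold.

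The signal of ZNRF3 in HCT116 was 232 with DMSO, 197 with C646 and 181 with ICG-001 at 12 h, and 257 with DMSO, 202 with C646 and 224 with ICG-001 at 96 h. All 4 drug columns lay below both DMSO columns. The log2 ratios over DMSO were -0.35 at 12 h and -0.20 at 96 h for ICG-001, and -0.23 and -0.35 for C646, all short of 1.5-fold.

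NOTUM encodes a secreted enzyme that inactivates WNT proteins by removing their lipid, and it was dim. Its signal in HCT116 was 165 with DMSO, 145 with C646 and 143 with ICG-001 at 12 h, and 172 with DMSO, 150.4 with C646 and 142 with ICG-001 at 96 h. The ICG-001 columns were at or under the limit, and the DMSO signal was at least 1.14-fold higher at 12 h and at least 1.2-fold higher at 96 h. As for ZNRF3, both DMSO columns lay above all 4 drug columns. That order was seen for 2 of the 7 detected genes of the set and for 10.8% of all 19246 detected genes, while the opposite order was seen for none of the 7 and for 11.4%.

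The remaining members stayed near or under the limit in HCT116. NKD1, whose product binds the Dishevelled proteins that relay the receptor signal, was above the limit in both DMSO columns and with C646 at 12 h, at 153 in each of them, and not in the other 3 columns. TNFRSF19, a receptor of the tumour necrosis factor family, was above it at 96 h with DMSO (158) and C646 (154). ASCL2, a transcription factor of intestinal stem cells, was above it at 96 h with DMSO (144) and ICG-001 (151). Log2 ratios over DMSO of these 3 genes, where they could be measured, lay between -0.21 and 0.07. Signals at or under the limit were taken as they stood in these ratios. LGR5, the R-spondin receptor known as a marker of intestinal stem cells, ranged from 125 to 136 in HCT116, and SP5, a zinc finger transcription factor whose promoter is shown above, from 121 to 139. APCDD1, a membrane protein that inhibits WNT receptors, ranged from 129 to 140.2. For LGR5, SP5 and APCDD1 no change was measurable at this brightness in HCT116.

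**Figure D2:**
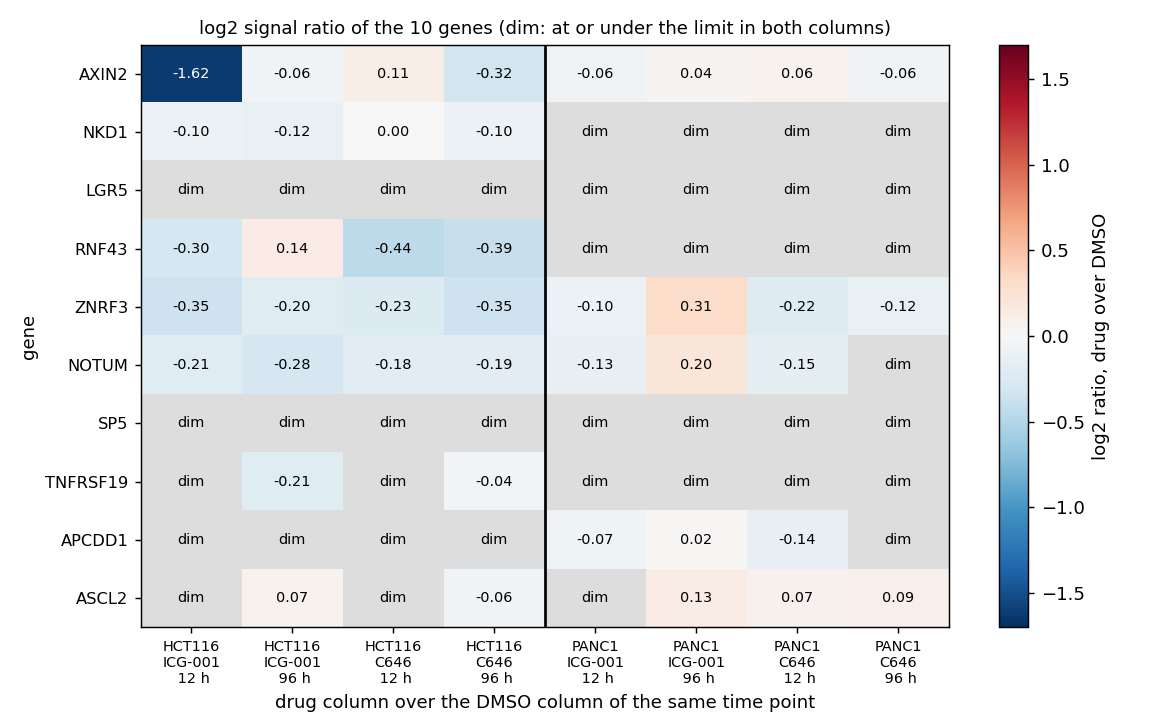
Log2 ratio of the drug column over the DMSO column of the same time point (colour and printed value) for the 10 genes (rows) in 8 comparisons (columns, HCT116 left of the line and PANC1 right). Grey cells marked dim were at or under the limit in both columns compared; AXIN2 with ICG-001 at 12 h in HCT116 is at -1.62, and every other cell lies between -0.44 and 0.31.

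Counted over the set, 1 of the 5 genes measured in HCT116 after 12 h of ICG-001 was at least 1.5-fold lower and none was higher, where 4.14% of all genes were lower and 4.8% higher. After 96 h of ICG-001 none of 7 passed in either direction, against 10.2% of all genes. With C646 none of 5 passed at 12 h and none of 7 at 96 h, against 4.08% and 3.12% of all genes. With ICG-001 the log2 ratio was below 0 for 5 of 5 measured genes at 12 h and 5 of 7 at 96 h, with a median over the measured genes of -0.30 and -0.12, or -0.30 and -0.09 when signals under the limit were put at the limit. With C646 it was below 0 for 3 of 5 and 7 of 7, with a median of -0.18 and -0.19, the same either way. Some of these genes were measured only because the DMSO column was above the limit, which favours a ratio below 0. They were 2 genes at 12 h and 3 at 96 h of ICG-001, and 2 at 96 h of C646. Over the 10 genes of the set, dim ones included, the ratio was below 0 for 8 and 7 with ICG-001 and for 6 and 8 with C646. The median over all genes was between -0.01 and 0.00 in these comparisons. Background was left in the deposited signals, which makes the ratios of dim genes too small. With the background corrected (normexp), AXIN2 was 4.42-fold lower at 12 h of ICG-001, and ZNRF3 (log2 ratio -0.66 at 12 h) also passed 1.5-fold with ICG-001, while RNF43 (-0.66 at 12 h) and ZNRF3 (-0.61 at 96 h) passed with C646. NOTUM and TNFRSF19 passed with ICG-001 at 96 h as well, but only against ICG-001 signals at or under the limit. There the deposited signals give at least 1.2-fold and at least 1.1-fold. The share of all genes passing after normexp was not computed.

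**Figure D3:**
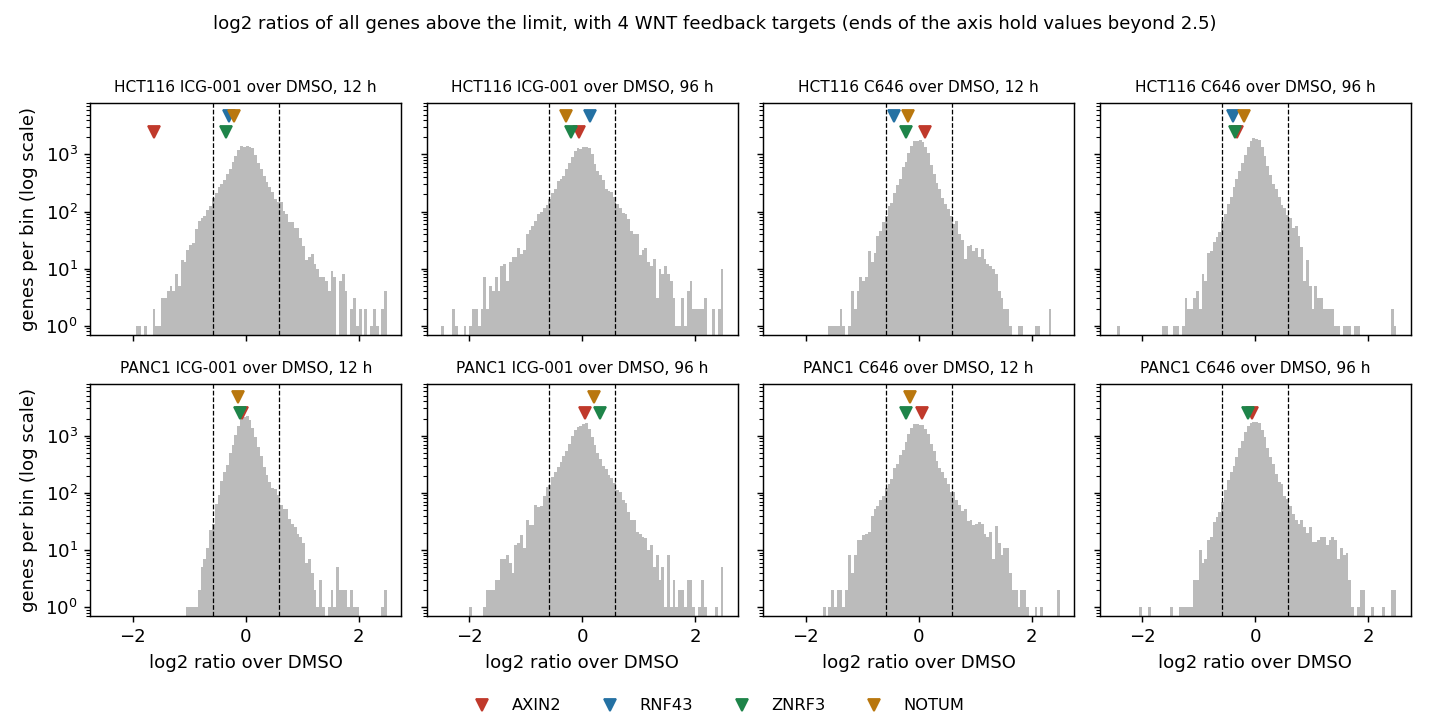
Histograms of the log2 ratio over DMSO (horizontal axes) of all genes detected in either column, with the number of genes per bin on a log scale (vertical axes), for 8 comparisons. Triangles mark AXIN2, RNF43, ZNRF3 and NOTUM where they were measured, their height has no meaning, and dashed lines are at 1.5-fold; only AXIN2 with ICG-001 at 12 h in HCT116, at -1.62, lies outside the dashed lines.

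To ask whether a blocker of CBP and an inhibitor of both co-activators differed, the ICG-001 and C646 columns were compared directly at the same dose and time. In HCT116 at 12 h, AXIN2 was 3.32-fold lower with ICG-001 than with C646, the third lowest ratio among 17191 genes after HSPA1B and DNAJA1. It was the only one of 5 measured genes of the set to pass 1.5-fold, against 6.23% of all genes. At 96 h none of 6 passed, against 6.52% of all genes. The log2 ratio of ICG-001 over C646 was then 0.26 for AXIN2, and RNF43 had the largest of the set, at 0.53 or 1.44-fold higher with ICG-001, with 4.07% of genes higher still. In PANC1 none of 4 measured genes passed at 12 h and none of 5 at 96 h, against 2.48% and 6.73% of all genes. Without replicate values, a difference under 1.5-fold does not show that the compounds act alike.

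Across time with the same treatment, AXIN2 was the only gene of the set to pass in HCT116. Its ratio between the ICG-001 columns uses the same 12 h ICG-001 signal (249) as its ratios to DMSO and to C646 at 12 h. These differences are thus not separate observations of a low signal. With DMSO none of 7 measured genes passed, against 3.09% of all genes. With ICG-001 1 of 4 passed, against 6.84%. AXIN2, RNF43 and ZNRF3, detected in both ICG-001 columns, had higher signals at 96 h. ASCL2 was also higher, but it was measured through its 96 h column alone, which favours that direction. Of the 10 genes of the set, dim ones included, 3 had lower signals at 96 h. With C646 1 of 6 passed, against 7.07%. In PANC1 no gene of the set passed with any treatment, out of 4 measured with DMSO, 5 with ICG-001 and 4 with C646, where 1.31%, 3.92% and 0.476% of all genes did.

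In PANC1 the set was dim and no gene reached 1.5-fold over DMSO in the deposited signals. AXIN2 gave 141 with DMSO, 147 with C646 and 136 with ICG-001 at 12 h, and 139.6 with DMSO, 134 with C646 and 144 with ICG-001 at 96 h. These signals were 0.985 to 1.08 times the limit of their own column, 5 above it and 1 under it, and their log2 ratios over DMSO were between -0.06 and 0.06. ZNRF3, the brightest against its limit, gave 193 with DMSO, 166 with C646 and 180.5 with ICG-001 at 12 h, and 162 with DMSO, 149 with C646 and 201 with ICG-001 at 96 h. Its ICG-001 column at 96 h was the highest of the 6, with a log2 ratio of 0.31 over DMSO, and its C646 columns were below DMSO at both time points. With the background corrected (normexp), ZNRF3 at 96 h of ICG-001 was 1.55-fold higher than with DMSO and 1.89-fold higher than with C646. The DMSO signal of ZNRF3 was itself lower at 96 h than at 12 h (deposited log2 ratio -0.25). Against the 12 h DMSO column, the deposited log2 ratio at 96 h of ICG-001 was 0.055. NOTUM gave 158 with DMSO at 12 h, was under the limit with DMSO at 96 h (126), and was between 132 and 145 in the drug columns.

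ASCL2 was above the limit in 3 PANC1 columns and APCDD1 in 2, with highest signals of 141 and 137. NKD1, LGR5, RNF43, SP5 and TNFRSF19 were at or under it in all 6. None of the 5 detected genes had both DMSO columns above all 4 drug columns or below them, orders seen for 13.2% and 13.5% of all detected PANC1 genes. None of 4 measured genes passed 1.5-fold after 12 h of ICG-001, none of 5 after 96 h, none of 5 after 12 h of C646 and none of 3 after 96 h, where 2.49%, 7.37%, 6.65% and 3.99% of all genes did.

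Since HCT116 and PANC1 seem to have been normalized separately, their DMSO columns were compared after quantile normalization over all 12 columns. AXIN2 was 5.52-fold higher in HCT116 than in PANC1 at 12 h and 4.61-fold higher at 96 h, with 0.461% and 0.796% of genes further toward HCT116. Its PANC1 signals were then 145 and 143 against a limit of 139.7, with background left in. These folds are therefore best read as lower bounds. RNF43, which was not detected in PANC1, was at least 2.37-fold and at least 2.28-fold higher in HCT116. For ZNRF3 the log2 ratio of HCT116 over PANC1 was 0.22 at 12 h and 0.63 at 96 h. NOTUM was even at 12 h, with a log2 ratio of 0.00, and at least 1.2-fold higher in HCT116 at 96 h.

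The genes that carry the WNT signal were described from a list of 76 ligands, secretion factors, receptors, cytoplasmic and nuclear components. In HCT116, 49 of them were measured after 12 h of ICG-001, of which 1 was higher and 3 were lower, and 51 after 96 h, with the same numbers, where 8.94% and 10.2% of all genes changed in either direction. These were FZD6, a Frizzled receptor, which rose by 0.78 and 0.85 on the log2 scale at 12 and 96 h, and, on the lower side at both time points, FZD2 (-0.64 and -0.60), CTNNB1 and TCF7L2. With C646, 1 of 48 was higher (WNT3A) and 2 were lower at 12 h, and none of 49 was higher and 2 were lower at 96 h, the lower genes being CTNNB1 and TCF7L2 at both, where 4.08% and 3.12% of all genes changed. The median log2 ratio of the list was -0.13 at 12 h and 0.01 at 96 h for ICG-001, and -0.08 at each time point for C646. In PANC1 none of 48 passed after 12 h of ICG-001, and 2 of 51 were higher (WNT4 and CSNK1E) and 2 lower (GPR177 and FZD2) after 96 h, against 2.49% and 7.37% of all genes. With C646, BCL9L and PYGO2 of 47 were lower at 12 h and BCL9L of 49 at 96 h (-0.70 and -0.65), against 6.65% and 3.99%. LEF1 was not above the limit in either line, nor were APC and TCF7 in HCT116.

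CTNNB1 and TCF7L2, which encode β-catenin and its DNA-binding partner, kept low signals in HCT116 where AXIN2 did not. The signal of TCF7L2 was 596 with DMSO, 333 with C646 and 271 with ICG-001 at 12 h, and 800.3 with DMSO, 410.2 with C646 and 317 with ICG-001 at 96 h. All 4 drug columns were lower than both DMSO columns, with log2 ratios of -1.14 and -1.34 for ICG-001 and -0.84 and -0.96 for C646. CTNNB1 gave 611 with DMSO, 367 with C646 and 400.4 with ICG-001 at 12 h, and 547 with DMSO, 354 with C646 and 354 with ICG-001 at 96 h, and again all drug columns lay below both DMSO columns. In PANC1 neither was in the genes changed at both time points, and TCF7L2 ranged from 172 to 245 and CTNNB1 from 213 to 242.

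**Figure D4:**
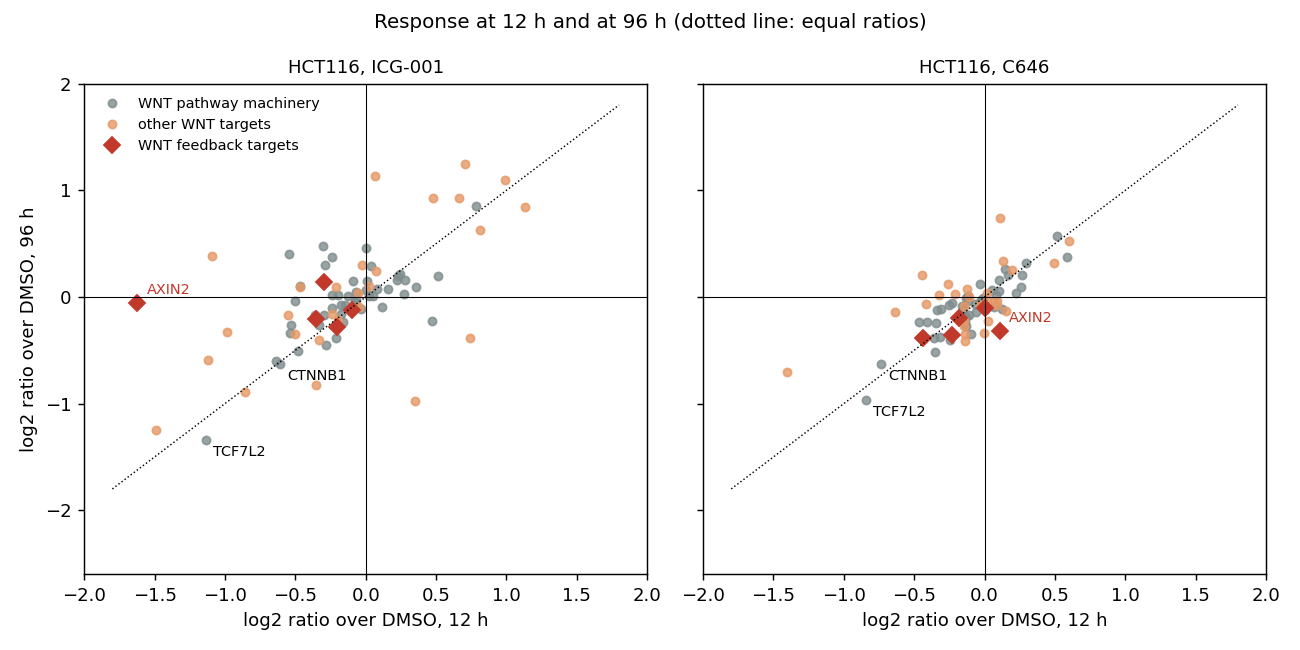
Log2 ratio over DMSO at 12 h (horizontal axes) against 96 h (vertical axes) in HCT116 for ICG-001 (left) and C646 (right), with each point a gene measured at both times. Diamonds are the WNT feedback targets, grey points the pathway list and orange points other WNT targets; TCF7L2 lies near the dotted line of equal ratios with ICG-001 (-1.14 and -1.34), while AXIN2 lies at -1.62 and -0.06.

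Other known WNT targets, 39 genes on a list, moved in both directions in HCT116 with ICG-001. After 12 h 6 of 28 measured genes were higher and 5 lower, and after 96 h 7 of 30 were higher and 5 lower, where 8.94% and 10.2% of all genes changed. At both time points BMP4, ID2 and IRX3 were lower, with log2 ratios of -0.59, -1.25 and -0.89 at 96 h. Among those higher at both, the 4 largest at 96 h were PLAUR, CCND1, VEGFA and FOSL1, at 1.24, 1.10, 0.93 and 0.84. With C646, 1 of 28 was higher (BAMBI) and 2 lower (SOX9 and S100A4) at 12 h, and 1 of 30 was higher (PLAUR) and 1 lower at 96 h, where 4.08% and 3.12% of all genes changed. SOX9, a transcription factor of crypt progenitors, was lower at both time points (-1.41 and -0.71). In PANC1, 3 of 24 were higher and none lower after 12 h of ICG-001, and 3 of 25 were higher and 2 lower after 96 h, where 2.49% and 7.37% of all genes changed, and VEGFA (0.77 and 0.68) and CLDN1 (0.99 and 1.13) were higher at both. With C646 none was higher in PANC1, and 3 of 25 were lower at 12 h and 4 of 26 at 96 h, against 6.65% and 3.99%, with FOSL1 (-1.25 and -1.30) and SOX9 (-0.96 and -0.88) lower at both. Parts of this list were also picked by the study on these samples, so its counts are not independent evidence of a direction.

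The genes whose pattern was most like that of AXIN2 were sought over the 6 HCT116 columns, by Pearson's r of log2 signals among 5459 detected genes with a range of at least 1.5-fold. The 5 with the highest r were HSP90AA1 (0.98), SEPX1 (0.97), FHOD1 (0.97), TMEM194A (0.96) and NFIA (0.95), and 0.550% of the genes had an r of at least 0.9. HSP90AA1, which encodes a heat shock chaperone, gave 10723 with DMSO, 10971 with C646 and 6959.7 with ICG-001 at 12 h, and 9355 with DMSO, 9071 with C646 and 9169.7 with ICG-001 at 96 h. Like AXIN2, it was lowest in the ICG-001 column at 12 h, and its columns stood in the same order. The other 4 genes also had their lowest signal there. The 6 points share a line, a normalization and DMSO columns, and by Spearman's rho the other 4 were between 0.71 and 0.77. No other gene of the set was among those compared, since RNF43 (range 1.45-fold), ZNRF3 (1.42-fold) and the dimmer members varied too little.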

How the data were processed

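RNA of HCT116 and PANC1 cells was labelled and hybridised to Illumina HumanHT-12 v4 BeadChips. The table holds linear signal intensity for each gene name, which the authors exported from GenomeStudio (version not given in the sources used here) after quantile normalization. They did not subtract background, and they averaged replicate arrays, 2 in 11 columns and 3 in 1 column. Groups came from the sample titles.

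The mean absolute difference of sorted log2 signals was 0.0037 to 0.0093 between columns of a line and 0.063 to 0.066 between lines, so columns were compared within a line, except where quantile normalization over all 12 columns is stated. For each column, the limit of detection was set 2.33 SD above the mode of its log2 signal density (Gaussian kernel, bandwidth 0.02), with the SD from values under the mode. In each of 18 comparisons a gene was measured when either column exceeded its limit, and called changed from 1.5-fold upward. Calls, ranks, shares of all genes and log2 ratios used the signals as they stood, also where the dimmer column was at or under its limit. Where a fold is given as at least a value, it is the brighter signal over the limit of the dimmer column.

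No test was run, since each group has 1 column. The procedure was tested on simulated data. Changes larger than 1.5-fold were planted there, only in genes well above the limit, so the simulation does not cover the dim genes of the set. The 10 genes and the gene lists were chosen with earlier results of these data known. Also named were the 5 genes most like AXIN2 by Pearson's r, list genes changed the same way at both time points with a drug (up to 4 per direction and list, by size at 96 h), CTNNB1, TCF7L2, and tissue markers not detected in the line they should mark. Some markers are not reported here.

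The settings varied were the fold threshold (1.2 and 2), the dim-gene filter (none), the limit (5 SD), background (normexp, offset 16, then quantile normalization by line), median centring of ratios, quantile normalization of the 12 columns together, the DMSO column of the other time point, and, for genes like AXIN2, Spearman's rho and Pearson's r over 12 columns centred by line. Promoter sequences were matched by symbol to a RefSeq table (GRCh38.p14), which held 4 of the 10 genes (6 windows). The array annotation's build is not given in the sources used here. Python 3.11.15, numpy 2.4.6, pandas 2.3.3, scipy 1.17.1, matplotlib 3.10.9, R 4.3.3 and limma 3.58.1 were used.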

Additional observations from a re-analysis of the deposited data

How the results depend on the processing

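The numbers of genes of the set that differed from DMSO, between the drugs or between the DMSO columns stayed within 1.5 times their values with the 5 SD limit, without the filter on dim genes, at a threshold of 2, after centring and after quantile normalization over 12 columns. At a threshold of 2 the 1.61-fold fall of AXIN2 between the C646 columns no longer passed. At 1.2-fold, 4 genes were lower with ICG-001 and 3 with C646 in HCT116, 2 differed between the drugs in HCT116, and in PANC1 1 was higher with ICG-001, 1 differed between the drugs and 1 between the DMSO columns. After normexp, 4 genes were lower with ICG-001 and 2 with C646 in HCT116, 2 differed between the drugs in HCT116, and in PANC1 2 were higher with ICG-001, 2 differed between the drugs and 1 between the DMSO columns. In the counts after normexp, NOTUM, TNFRSF19 and APCDD1 pass only against a signal at or under the limit. The share of all genes passing at 1.2-fold or after normexp was not computed, so these counts have no background to be read against. Normexp takes out background, so ratios of dim genes grew by construction: 73 of 91 log2 ratios of the set moved by more than the spread of background genes. Against the DMSO column of the other time point 16 of 37 moved, and AXIN2 with ICG-001 was at -1.37 at 12 h and -0.31 at 96 h; the cause was not tested. Signs differed for 2 of 91 ratios after normexp, 2 of 91 after 12-column quantile normalization and 7 of 37 with the other DMSO column, all of size 0.22 or less. Of the 5 genes most like AXIN2, 1 was among the 5 highest over 12 centred columns. No paired analysis was possible because each group has 1 averaged column, and leaving out a replicate was not possible for the same reason. Signals near the limit bound what can be seen: for 3 of the 10 genes in HCT116 and 5 in PANC1 no column was above it. At the 5 SD limit only AXIN2, RNF43, ZNRF3 and NOTUM were detected in some HCT116 column, and only ZNRF3 and NOTUM in some PANC1 column.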

Other observations

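Intestinal stem cell genes other than LGR5 and ASCL2 were read from a list of 19. In HCT116, 13 of them were above the limit in all 6 columns, among them PROM1, RGMB, MSI1 and LRIG1, while OLFM4, SMOC2 and HOPX were not above it in any. After ICG-001 none of 13 measured genes passed 1.5-fold at 12 h and 1 of 14 (CDCA7) was higher at 96 h, where 8.94% and 10.2% of all genes changed. CDCA7 was at least 1.5-fold lower at 96 h than at 12 h with DMSO and with C646. With ICG-001 it did not pass in either direction between the time points. With C646 1 of 13 was lower at 12 h and 1 of 14 at 96 h, SOX9 in each case, against 4.08% and 3.12% of all genes. SOX9 is also on the list of other WNT targets, so its values in both lines are those already given there. In PANC1 none of 13 passed with ICG-001 at either time point, and 1 of 13 was lower with C646 at both, again SOX9. There 2.49% and 7.37% of all genes changed with ICG-001 and 6.65% and 3.99% with C646.

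Secreted and cytoplasmic WNT inhibitors outside the set were read from a list of 17 genes. In HCT116 1 of 7 measured genes (CXXC5) was lower after 12 h of ICG-001 and 1 of 8 (DKK1) after 96 h, both named after their values were seen, where 8.94% and 10.2% of all genes changed, and none of 8 passed with C646 at either time point, against 4.08% and 3.12%. In PANC1 none of 8 passed after 12 h of ICG-001, and 1 of 7 was higher (NKD2) and 2 lower (DKK1 and SFRP1) after 96 h, against 2.49% and 7.37% of all genes. With C646 1 of 8 was higher (NKD2) and 1 lower (SFRP1) at 12 h, and 1 of 7 was higher (NKD2) at 96 h, against 6.65% and 3.99%. NKD2, a relative of NKD1, rose by 0.96 at 12 h and by 0.77 at 96 h of C646 on the log2 scale, while NKD1 itself was at or under the limit in all 6 PANC1 columns.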
